A study of Mus musculus with 6 samples.

Results

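The genes described here are 7 acyl-CoA thioesterases (*Acot1*, *Acot2*, *Acot3*, *Acot4*, *Acot8*, *Acot12* and *Acot13*) and 3 further genes that respond to the fatty acid receptor PPARα in liver (*Vnn1*, *Creb3l3* and *Pex11a*). They were picked by name from the 56691 gene IDs of the deposited liver table, and each of the 10 symbols matched 1 Ensembl gene ID. All 10 passed the expression filter, a mean FPKM of at least 1 over the 6 libraries, which 10866 genes passed. FPKM is the number of reads scaled to the exonic length of the gene and to the counted reads of the library. It is the only scale used below to compare 1 gene with another. Comparisons between libraries use CPM, read counts scaled to library size by TMM, a method that equalises libraries on the bulk of their genes.

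Poly(A) RNA of whole liver was sequenced from 6 pregnant mice, 3 in each of 2 groups, that all received a high-fructose diet (HFrD) from mating to late gestation. KPF dams (replicates 1, 2 and 3) lacked *Chrebp* in hepatocytes (h*Chrebp* KO). They carried 2 floxed alleles with loxP sites around exon 2 of *Mlxipl*, the gene of ChREBP, and 1 copy of a Cre transgene driven by the albumin promoter. WPF dams (replicates 2, 3 and 4) were the controls. The sample labels call them WT, and the study's methods describe them as *Chrebp* flox/flox without Cre. Both groups were therefore homozygous for the floxed allele by that description, and both had been mated with *Chrebp* flox/flox males. The ages of the dams are not given in the sources used here. The study describes the deletion as specific to hepatocytes, and whether other cells of the liver kept the gene was not examined here. The question is how the thioesterases and their PPARα-responsive companions stood in livers without hepatocyte ChREBP under fructose feeding.

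Acyl-CoA thioesterases split acyl-CoA into a free fatty acid and coenzyme A (CoA), and so set the balance between activated and free fatty acids within a compartment of the cell. The type I enzymes are close relatives placed side by side in the genome, with ACOT1 in the cytosol, ACOT2 in mitochondria and ACOT3 and ACOT4 in peroxisomes. ACOT8 is peroxisomal, ACOT12 splits acetyl-CoA in the cytosol and ACOT13 is a small enzyme associated with mitochondria. PPARα is the receptor through which fasting and fibrate drugs induce fatty acid oxidation in liver, and several thioesterase genes are among its classical targets. ChREBP is a sugar-activated transcription factor that drives glycolytic and lipogenic genes.

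The 4 type I genes lie on the plus strand of chromosome 12, in the order *Acot2* (chr12:84034635-84040647), *Acot1* (chr12:84056264-84065145), *Acot4* (chr12:84085153-84095375) and *Acot3* (chr12:84098918-84107176), in the coordinates of the deposited table, whose build is GRCm39 by the submitters' processing notes. *Acot1* and *Acot2* are the closest pair. Their coding sequences matched at 1178 of 1236 aligned bases (95.3%), while the other pairs among *Acot1* to *Acot6* matched at 73.8% to 85.4%. The coding sequence of *Acot2* has 123 further bases at its start, and ACOT2 carries a mitochondrial targeting sequence at that end. Reads of the pair can be hard to tell apart: 5.50% of the 150-base windows of *Acot1* transcripts and 10.2% of those of *Acot2* were identical in the other gene. The first 180 coding bases of *Acot1* and the *Acot2* bases aligned with them are shown because they are the start of the aligned part and a stretch in which the letters of the pair differ. Both stretches lie in exon 1 of their gene on the plus strand, at chr12:84009510-84009689 (*Acot1*) and chr12:83988025-83988204 (*Acot2*) in GRCm38, the build of the GENCODE M21 transcripts they were read from. Capitals mark the 18 bases that differ.
Acot1: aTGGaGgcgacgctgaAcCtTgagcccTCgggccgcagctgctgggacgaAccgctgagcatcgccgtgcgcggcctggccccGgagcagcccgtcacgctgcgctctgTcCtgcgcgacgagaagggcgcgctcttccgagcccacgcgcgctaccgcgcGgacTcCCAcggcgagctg
Acot2: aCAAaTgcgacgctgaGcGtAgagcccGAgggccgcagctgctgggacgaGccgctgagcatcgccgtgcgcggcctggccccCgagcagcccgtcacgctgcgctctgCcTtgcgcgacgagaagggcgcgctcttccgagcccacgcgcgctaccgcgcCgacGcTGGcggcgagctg

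Promoter windows, 250 bases before to 50 bases after a start site in RefSeq on GRCm38.p6, were found for 8 of the 10 genes. They were searched on both strands for the direct repeat that PPARα binds with RXR, written AGGTCANAGGTCA. The 8 genes had 10 such windows. With at most 2 mismatches the repeat was present in 3 of these 10 windows, each of a different gene, and 3.86% of 32851 promoter windows in the whole table held such a match. *Acot12* had 1 mismatch, which 0.554% of windows reached, in a match that begins 110 bases before the start. *Acot4* had 2 mismatches, 13 bases before the start, and also held 1 copy of CACGTG, the E-box that ChREBP and related factors can bind and that 7.15% of windows held. *Creb3l3* had 2 mismatches, 209 bases before 1 of its 2 start sites. No window of *Acot1*, *Acot2*, *Acot3*, *Acot8* or *Pex11a* had a match within 2 mismatches. A match here is a description of letters and not a binding site. The 3 matches are shown because they are the only ones among these genes, with the match in capitals, each read along the strand of its gene. For *Acot12* (chr13:91741371-91741463, plus strand) and *Acot4* (chr12:84038326-84038378, plus strand) the repeat lies on the opposite strand and appears in reverse, while for *Creb3l3* (chr10:81092748-81092840, minus strand) it lies along the gene.
Acot12: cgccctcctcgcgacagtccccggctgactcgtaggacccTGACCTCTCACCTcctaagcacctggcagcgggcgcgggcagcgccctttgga
Acot4: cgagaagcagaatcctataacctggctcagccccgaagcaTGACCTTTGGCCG
Creb3l3: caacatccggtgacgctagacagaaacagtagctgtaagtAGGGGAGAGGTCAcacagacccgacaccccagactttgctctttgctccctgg

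Before the results, the libraries need a description. They held 10694496 to 14496630 counted reads, and the genes described here had 34 to 3710 reads per library, so *Acot1*, *Acot2* and *Acot8* rest on the fewest reads. *Mlxipl* was at 182, 709 and 860 CPM in the KPF dams numbered 1, 2 and 3, against 974, 1277 and 891 CPM in the WPF dams numbered 2, 3 and 4 (log2 fold change −0.84, unadjusted p = 0.152 by edgeR's quasi-likelihood test, adjusted p = 0.584). The groups did not overlap, as in 15.7% of all tested genes, but only KPF replicate 1 lay far below the controls. The count covers the whole gene and not only the deleted exon. Of 10 ChREBP target genes, 9 were lower in KPF by the call rule given below. That rule called 5.83% of all tested genes higher in KPF and 3.98% lower. WPF replicate 4 stood apart from the other controls in these genes, with *Fasn*, the fatty acid synthase, at 245 CPM against 2574 and 2113 CPM in WPF replicates 2 and 3 and 149 to 178 CPM in KPF. KPF replicate 2 carried RNA of skeletal muscle. The 5 muscle markers summed to 3120 CPM there, against 5.45 and 5.70 CPM in the other KPF libraries and 4.75 to 11.4 CPM in WPF. The 8 hepatocyte markers summed to 74280 to 102058 CPM in KPF and 103290 to 168162 CPM in WPF. Most of each sum was *Alb*, at 65832 to 91390 CPM in KPF and 90628 to 150690 CPM in WPF. Of the 8, 1 (*Apoa2*) was called lower, and 2 had an estimate above 0 and 6 below. The 8 stellate and fibroblast markers summed to 182 to 689 CPM in KPF and 106 to 134 CPM in WPF, with 5 called higher. These were *Reln*, *Des*, *Col1a1*, *Col3a1* and *Col14a1*. The 689 CPM was in KPF replicate 2, the library with muscle RNA, where *Des* alone was at 493 CPM, against 54.5 and 10.2 CPM in KPF replicates 1 and 3. Adipocyte markers summed to 2.14 to 23.7 CPM in KPF and 0 to 0.427 CPM in WPF, with the 1 tested (*Cfd*) called higher and *Lep* without a read in any library, and lymphocyte markers to 7.53 to 13.9 CPM in KPF and 4.04 to 4.64 CPM in WPF, with 1 of 2 tested (*Trbc2*) called higher. In bulk liver, fewer cells of a type and less RNA per cell cannot be told apart. Mitochondrial genes took 33.2% to 35.0% of reads in KPF and 18.7% to 29.1% in WPF. The part of these differences in the results below was not tested. Each gene is also given below without KPF replicate 2 and without WPF replicate 4.

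None of the 10 genes passed the test for a difference between KPF and WPF. A gene was called where edgeR's quasi-likelihood test gave an unadjusted p under 0.05 with a change of at least 1.5-fold. This rule called 0 of the 10, against 9.81% of all tested genes (5.83% higher in KPF and 3.98% lower). Groups did not overlap in 0 of the 10 genes and in 15.7% of all tested genes. The fitted log2 fold change was above 0 in 6 genes and below 0 in 4, with a median of 0.03 beside 0.02 over all tested genes. At an adjusted p under 0.05 (Benjamini-Hochberg over the 10866 genes) edgeR called 0% of genes, that is 0, although 1176 had an unadjusted p under 0.05, and DESeq2 called 156 at that adjusted threshold, none of them among the 10. The smallest adjusted p among the 10 genes was 0.525, that of *Acot1*. An exact two-sided permutation test of 3 dams against 3 cannot go below p = 0.1, and its smallest value among the 10 was 0.2, for *Creb3l3*. The labels do not say that the libraries come from separate dams beyond their numbering, so the p-values measure the spread between these libraries.

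**Figure D1:**
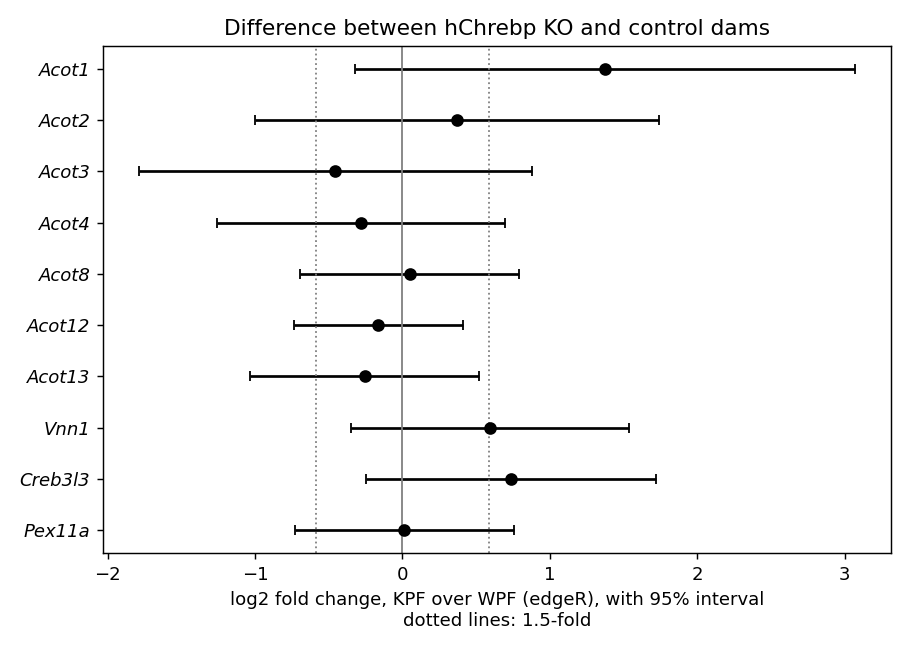
Log2 fold change of each gene, KPF over WPF, from edgeR on counts, with 95% intervals (horizontal axis) and dotted lines at 1.5-fold in each direction. All 10 intervals include 0, and those of *Acot1*, *Acot2* and *Acot3* are the widest.

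The livers were rich in some of these transcripts and poor in others. By the median FPKM of the 6 libraries the order was *Acot13* (68.4), *Creb3l3* (53.8), *Vnn1* (21.5), *Acot3* (20.4), *Pex11a* (20.2), *Acot12* (16.9), *Acot4* (13.9), *Acot2* (4.30), *Acot8* (3.20) and *Acot1* (1.68). *Acot13* was above *Creb3l3* in 4 of the 6 libraries, so the 2 leading genes were not separated beyond the spread. *Creb3l3* was above *Vnn1*, and *Acot4* above *Acot2*, in all 6. *Vnn1*, *Acot3*, *Pex11a*, *Acot12* and *Acot4* formed a middle group in which each gene was above the next in only 3 or 4 of the libraries. The lowest was *Acot1*, at 0.66 to 8.06 FPKM, below *Acot8* in 5 of 6 libraries. Among the type I genes the peroxisomal *Acot3* and *Acot4* thus had a higher median than the mitochondrial *Acot2*, with the cytosolic *Acot1* last.

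**Figure D2:**
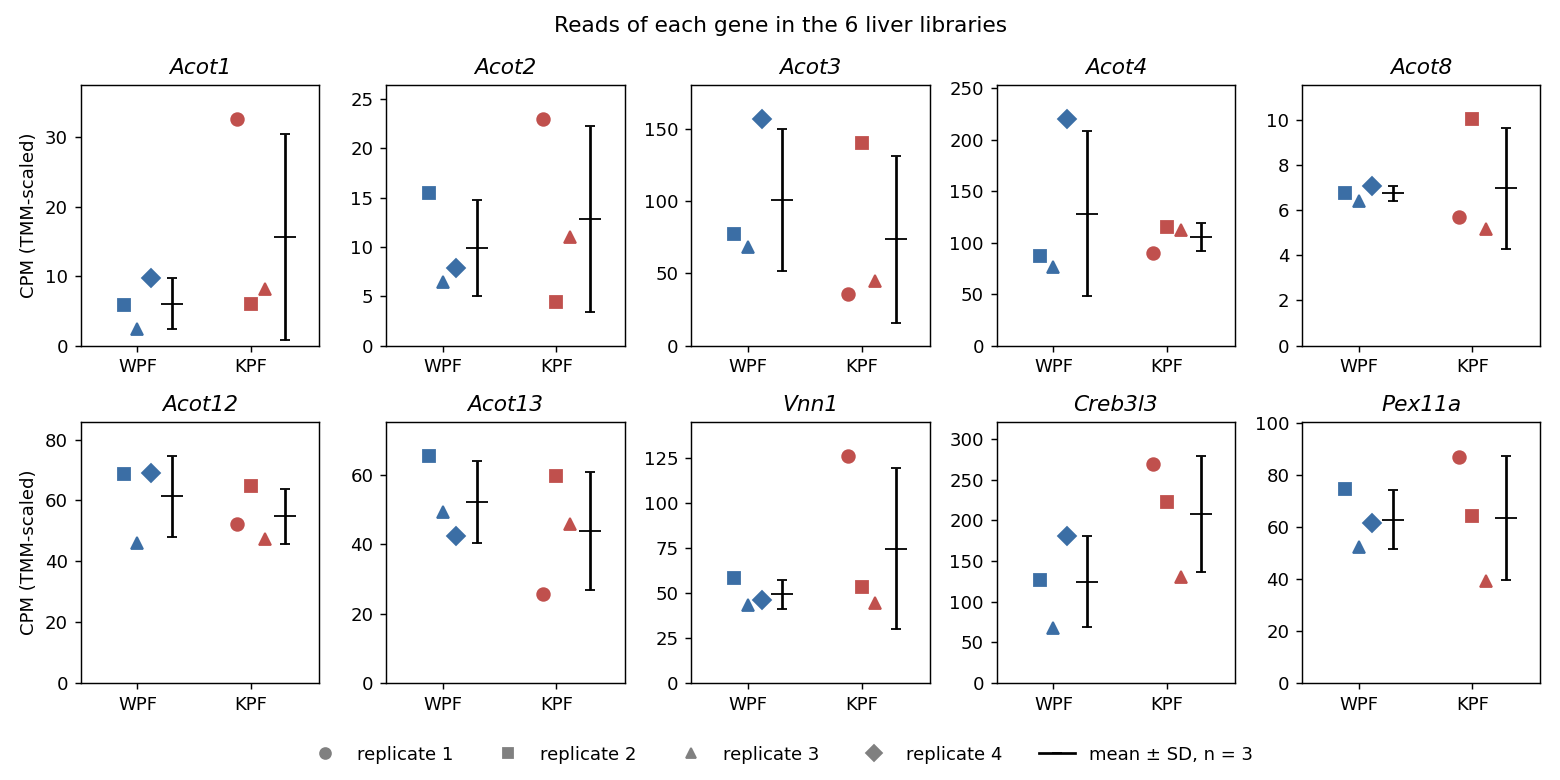
TMM-scaled CPM (vertical axis, linear from 0, a separate scale per gene) of the 10 genes in each library, WPF in blue and KPF in red, with the marker shape giving the replicate and black bars the mean ± SD of 3 dams. The groups overlap in every panel, and KPF replicate 1 (circle) sits above the other 5 libraries in *Acot1*, *Acot2*, *Vnn1*, *Creb3l3* and *Pex11a*.

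*Acot1*, the cytosolic type I enzyme, had the largest estimate and the largest spread. It was at 32.6, 6.01 and 8.18 CPM in the KPF dams numbered 1, 2 and 3, against 5.78, 2.42 and 9.79 CPM in the WPF dams numbered 2, 3 and 4. KPF replicate 1 was 5.43 times the median of the other 5 libraries, and the other 2 KPF libraries lay within the range of WPF. The mean was 15.6 ± 14.8 CPM (SD, n = 3) in KPF and 6.00 ± 3.69 CPM in WPF. By edgeR the log2 fold change was 1.37 (SE 0.73, 95% interval −0.32 to 3.07, adjusted p = 0.525). The interval holds both no difference and a rise of several fold. Without KPF replicate 1 the log2 fold change was 0.24 (unadjusted p = 0.688). Without KPF replicate 2, the library with muscle RNA, it was 1.76 and was called (unadjusted p = 0.0344, adjusted p = 0.483), and without WPF replicate 4 it was 1.93 (unadjusted p = 0.0548).

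*Acot2*, the mitochondrial enzyme and the closest relative of *Acot1*, was at 23.0, 4.39 and 11.0 CPM in the KPF dams, against 15.5, 6.41 and 7.83 CPM in the WPF dams. KPF held both the highest library, replicate 1, and the lowest, replicate 2, and enclosed all of WPF. This gave a log2 fold change of 0.37 (SE 0.59, 95% interval −1.0 to 1.74, adjusted p = 0.829), and the estimate was −0.36 without KPF replicate 1, 0.78 without KPF replicate 2 and 0.22 without WPF replicate 4. With the reads of *Acot1* and *Acot2* added together as 1 gene, the log2 fold change was 0.84 (SE 0.61, unadjusted p = 0.206).

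The peroxisomal type I enzymes ran differently. *Acot3* was at 35.3, 140 and 44.6 CPM in the KPF dams, against 77.2, 67.9 and 157 CPM in the WPF dams. KPF replicates 1 and 3 were the lowest libraries, while KPF replicate 2 and WPF replicate 4, the libraries that stood apart above, were the highest. The resulting log2 fold change was −0.46 (SE 0.57, 95% interval −1.79 to 0.88, adjusted p = 0.788). It was −1.34 and called lower without KPF replicate 2 (unadjusted p = 0.0134, adjusted p = 0.425), and 0.01 without WPF replicate 4. With both of these libraries left out, 2 dams against 2, it was −0.87 and called (unadjusted p = 0.0132). The estimate for *Acot3* thus turned on which of these libraries were kept.

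*Acot4* was at 89.6, 115 and 112 CPM in the KPF dams, against 87.1, 76.6 and 220 CPM in the WPF dams. WPF replicate 4 was 2.46 times the median of the other 5 libraries, and the KPF values lay between it and the other controls. Between the groups the log2 fold change was −0.28 (SE 0.42, 95% interval −1.26 to 0.70, adjusted p = 0.820), −0.35 without KPF replicate 2 and 0.36 without WPF replicate 4 (unadjusted p = 0.213). *Acot3* and *Acot4* were both highest in that library. The reads of all 6 type I genes added together gave a log2 fold change of −0.24 (SE 0.40, unadjusted p = 0.570).

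The remaining thioesterases varied less between dams. *Acot8*, which acts on many acyl-CoA lengths in peroxisomes, was at 5.70, 10.04 and 5.16 CPM in the KPF dams, against 6.74, 6.41 and 7.06 CPM in the WPF dams. The controls fell inside the range of KPF, and KPF replicate 2 was the highest library. Its log2 fold change was 0.05 (SE 0.32, 95% interval −0.70 to 0.79, adjusted p = 0.964), −0.32 without KPF replicate 2 and 0.08 without WPF replicate 4. *Acot12*, the cytosolic acetyl-CoA hydrolase, was at 52.1, 64.7 and 47.4 CPM in the KPF dams, against 68.8, 46.1 and 69.1 CPM in the WPF dams. Its estimate was the most precise of the 10, with a log2 fold change of −0.16 (SE 0.25, 95% interval −0.74 to 0.41, adjusted p = 0.822), so a 1.5-fold fall remained inside the interval and a 1.5-fold rise was outside it. It was −0.31 without KPF replicate 2 and −0.08 without WPF replicate 4. *Acot13*, the small thioesterase, was at 25.8, 59.7 and 45.8 CPM in the KPF dams, against 65.4, 49.2 and 42.3 CPM in the WPF dams. KPF replicate 1 was the lowest library, at 0.524 times the median of the others. The fitted log2 fold change was −0.26 (SE 0.33, 95% interval −1.04 to 0.52, adjusted p = 0.795), 0.01 without KPF replicate 1, −0.56 without KPF replicate 2 and −0.40 without WPF replicate 4.

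*Vnn1* encodes vanin-1, a pantetheinase that releases the CoA precursor pantothenate and is a sensitive PPARα target in liver. It was at 126, 53.3 and 44.4 CPM in the KPF dams, against 58.6, 43.1 and 46.3 CPM in the WPF dams. KPF replicate 1 alone stood above the rest, at 2.72 times their median, and the other 2 KPF libraries lay within the range of WPF. By edgeR the log2 fold change was 0.60 (SE 0.41, 95% interval −0.35 to 1.54, adjusted p = 0.611), −0.01 without KPF replicate 1, 0.79 without KPF replicate 2 and 0.55 without WPF replicate 4.

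*Creb3l3* encodes CREBH, a membrane-bound transcription factor of the liver that acts with PPARα in fasting. It was at 270, 223 and 130 CPM in the KPF dams, against 126, 67.5 and 180 CPM in the WPF dams. KPF replicates 1 and 2 were the highest libraries and WPF replicate 3 the lowest, and the groups overlapped through WPF replicate 4, which was above KPF replicate 3. The mean was 207 ± 71.3 CPM (SD, n = 3) in KPF and 125 ± 56.4 CPM in WPF. This gave a log2 fold change of 0.74 (SE 0.42, 95% interval −0.25 to 1.72, unadjusted p = 0.122, adjusted p = 0.555). Without KPF replicate 2 it was 0.68 (unadjusted p = 0.191). It was called without WPF replicate 4, at 1.09 (unadjusted p = 0.0430, adjusted p = 0.440). *Creb3l3* was above 0 with each of the 6 libraries left out in turn, as was *Acot1*.

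*Pex11a* encodes a membrane protein that promotes the division of peroxisomes. It was at 86.8, 64.2 and 39.0 CPM in the KPF dams, against 74.7, 52.2 and 61.4 CPM in the WPF dams. KPF replicate 1 was the highest library and KPF replicate 3 the lowest, so that KPF enclosed WPF. The resulting log2 fold change was 0.01 (SE 0.32, 95% interval −0.73 to 0.76, adjusted p = 0.987), −0.000744 without KPF replicate 2 and −0.00892 without WPF replicate 4.

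**Figure D3:**
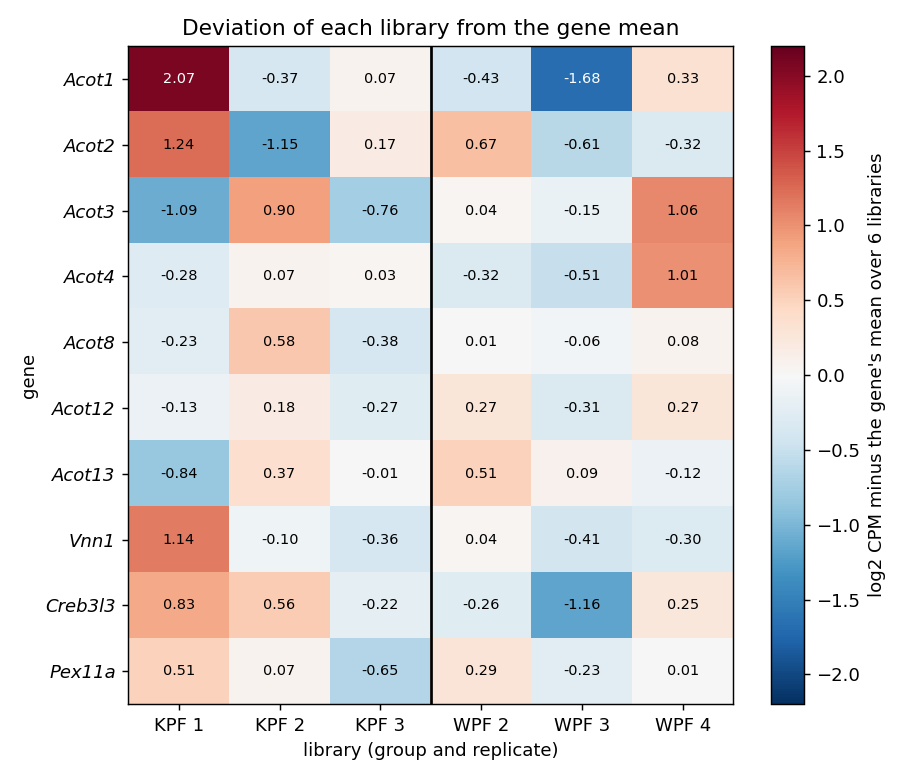
Log2 CPM of each gene in each library minus the mean of that gene over the 6 libraries (colour and printed value), KPF to the left of the black line and WPF to the right. KPF replicate 1 reaches 2.07 for *Acot1* and 1.24 for *Acot2* and falls to −1.09 for *Acot3*, and WPF replicate 4 reaches 1.06 for *Acot3* and 1.01 for *Acot4*.

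Single dams stood out in several genes at once. KPF replicate 1 had the highest CPM of the 6 libraries in 5 of the 10 genes (*Acot1*, *Acot2*, *Vnn1*, *Creb3l3* and *Pex11a*) and the lowest in 2 (*Acot3* and *Acot13*). WPF replicate 4 was highest in 3 (*Acot3*, *Acot4* and *Acot12*), and WPF replicate 3 was lowest in 5 (*Acot1*, *Acot4*, *Acot12*, *Vnn1* and *Creb3l3*). The SD of log2(CPM + 1) within groups was 1.04 for *Acot1*, 0.874 for *Acot2* and 0.871 for *Acot3*, against a median of 0.320 over all tested genes, and 96.1%, 94.4% and 94.3% of tested genes had a smaller SD. In 9 of the 10 genes the SD was above that median, *Acot12* being the exception at 0.283.

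**Figure D4:**
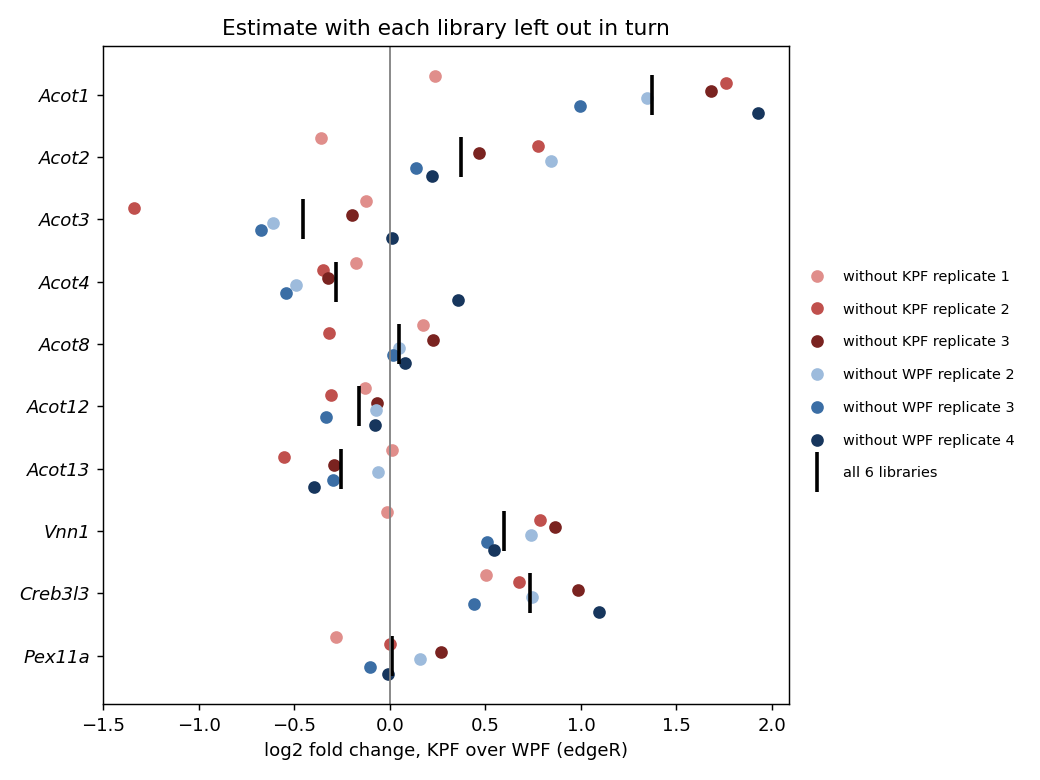
Log2 fold change, KPF over WPF, by edgeR with each of the 6 libraries left out in turn (dots) and with all 6 (black bars). *Acot1* moves from 1.37 to 0.24 without KPF replicate 1, *Acot3* from −0.46 to −1.34 without KPF replicate 2, and *Acot4* from −0.28 to 0.36 without WPF replicate 4.

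The genes around them in the same pathways were read in the same way. For comparison with each list, 5.83% of all tested genes were called higher in KPF and 3.98% lower, and 15.7% had no overlap. Of 7 other acyl-CoA thioesterases and related enzymes, 3 passed the filter (*Acot7*, *Acot11* and *Them4*) and 0 were called. *Acot11*, a thioesterase known from brown fat, had a log2 fold change of −0.76 (SE 0.36, adjusted p = 0.484). It was called lower without KPF replicate 2 (−1.21, unadjusted p = 0.00510), without WPF replicate 4 (−0.96, unadjusted p = 0.0370) and with both left out (−1.40, unadjusted p = 0.00121). *Acot11* was not called without KPF replicate 1 (−0.55), KPF replicate 3 (−0.63), WPF replicate 2 (−0.65) or WPF replicate 3 (−0.67). Nor was it called by DESeq2 (−0.76) or with the replicate number as a block (−0.80, unadjusted p = 0.0538). *Acot7* had a log2 fold change of −0.29 (SE 0.27) and *Them4* of 0.12 (SE 0.25). *Acot5* and *Acot10* had at most 0.0896 CPM in any library.

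Of 39 other PPARα targets, 38 were tested, 0 were called higher and 1 lower, and 23 of the 38 estimates were below 0, with a median log2 fold change of −0.11. The called gene was *Fabp1*, the abundant fatty acid binding protein of liver, at 1391, 891 and 1780 CPM in the KPF dams, against 2686, 2598 and 3509 CPM in the WPF dams. The groups did not overlap, and the log2 fold change was −1.11 (SE 0.34, unadjusted p = 0.0115, adjusted p = 0.430 by edgeR, 0.0463 by DESeq2). *Fabp1* was called with each library left out in turn, at −1.36 to −0.89. It was not called with KPF replicate 2 and WPF replicate 4 both left out (−0.75, unadjusted p = 0.0555). Nor was it called with the replicate number as a block (−1.07, unadjusted p = 0.0629), a fit whose estimate rests only on replicates 2 and 3 of each group. The groups overlapped in 2 other abundant targets, neither of them called. *Acaa1b*, a thiolase of peroxisomal oxidation, had a log2 fold change of −0.76 (SE 0.68), and *Cyp4a10*, an omega-hydroxylase of fatty acids, was at 0.62 (SE 0.60). *Cyp4a10* was at 1225 CPM in KPF replicate 1 against 214 to 625 CPM in the other 5 libraries. KPF replicate 1 was the highest library in 12 of the 38 tested targets, WPF replicate 4 in 12 and WPF replicate 2 in 10, while KPF replicate 2 was the lowest in 12 and WPF replicate 3 in 11. With each library left out in turn, 0 to 2 of the 38 were called higher and 1 to 3 lower. Over all 10866 tested genes these counts were 324 to 910 higher and 246 to 709 lower. The summed CPM of the list ran from 5438 to 8147 in KPF and from 6989 to 9801 in WPF.

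Of 10 genes for PPARα, its relatives and its partners, 9 were tested, with 0 called higher and 1 lower. *Ppara*, given because it encodes the receptor itself, was at 12.1, 11.7 and 9.54 CPM in the KPF dams, against 5.25, 3.77 and 22.8 CPM in the WPF dams, a log2 fold change of 0.05 (SE 0.63). All 3 KPF libraries lay between WPF replicate 4 and the other 2 controls. The called gene was *Lpin1*, which encodes lipin 1, a phosphatidate phosphatase that also acts as a partner of PPARα. It was at 11.5, 23.3 and 6.04 CPM in the KPF dams, against 59.4, 71.3 and 31.1 CPM in the WPF dams, without overlap, and the log2 fold change was −1.98 (SE 0.52, unadjusted p = 0.00541, adjusted p = 0.430). *Lpin1* was called with each library left out, at −2.63 to −1.63. With KPF replicate 2 and WPF replicate 4 both left out it was called as well (−2.91, adjusted p = 0.0363 by edgeR). DESeq2 on all 6 libraries gave *Lpin1* an adjusted p of 0.0142.

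Of 11 targets of CREBH, 10 were tested, 2 were called higher and 0 lower, and the median log2 fold change was −0.23. *Apoa5*, an apolipoprotein that promotes the clearance of triglycerides, was at 372, 422 and 250.1 CPM in the KPF dams, against 249.4, 188 and 167 CPM in the WPF dams. The groups did not overlap, though KPF replicate 3 and WPF replicate 2 nearly met. Between the groups the log2 fold change was 0.79 (SE 0.30, unadjusted p = 0.0307, adjusted p = 0.430), and it was 0.62 and no longer called without KPF replicate 2 (unadjusted p = 0.0858), nor was it called without KPF replicate 1 (0.74), WPF replicate 3 (0.74) or WPF replicate 4 (0.66), or with the replicate block (0.58, unadjusted p = 0.118). *Pck1*, the gluconeogenic carboxykinase, was at 270.0, 1744 and 326 CPM in the KPF dams, against 201, 131 and 318 CPM in the WPF dams. KPF replicate 2 was far above the rest, and the log2 fold change of 1.85 (SE 0.75, adjusted p = 0.453) was 0.46 and not called without it (unadjusted p = 0.278), and not called without WPF replicate 2 (1.80) or WPF replicate 3 (1.59). Without KPF replicate 2, 0 of the 10 targets were called, and with each library left out in turn 0 to 2 were called higher and 0 to 2 lower. With KPF replicate 2 and WPF replicate 4 both left out, 2 of the 10 were called higher and 3 lower. Of all 10866 tested genes, 695 were called higher and 657 lower in that setting. *Pck1* was among those called higher there (0.84, unadjusted p = 0.0370 by edgeR). The most abundant of the list by FPKM, the apolipoproteins *Apoa1* and *Apoa4*, were not called, with log2 fold changes of 0.10 (SE 0.45) and −1.39 (SE 0.93).

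Of 15 other genes for the assembly and division of peroxisomes, all were tested, 1 was called higher and 0 lower, and 11 estimates were below 0. The called gene was *Pex11g*, a relative of *Pex11a*, at 27.8, 32.1 and 20.8 CPM in the KPF dams, against 9.20, 11.96 and 16.6 CPM in the WPF dams. The groups did not overlap, and the log2 fold change was 1.09 (SE 0.28, unadjusted p = 0.00500, adjusted p = 0.430). *Pex11g* was called with each library left out, at 0.91 to 1.34. *Pex5*, the import receptor for peroxisomal matrix proteins and the most abundant of the list by FPKM, had a log2 fold change of −0.39 (SE 0.22, unadjusted p = 0.125).

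Of 13 genes of CoA synthesis and breakdown, 12 were tested, 0 were called higher and 2 lower, with a median log2 fold change of −0.21. The called genes were both pantothenate kinases by name, and the activity of their products was not measured. *Pank1* was at 59.7, 93.2 and 63.5 CPM in the KPF dams, against 163, 103 and 95.7 CPM in the WPF dams, a log2 fold change of −0.74 (SE 0.31, unadjusted p = 0.0434, adjusted p = 0.454). *Pank4* was at 10.5, 18.5 and 12.7 CPM in the KPF dams, against 20.7, 22.8 and 19.2 CPM in the WPF dams, a log2 fold change of −0.59 (SE 0.25, unadjusted p = 0.0488, adjusted p = 0.461). Neither gene's groups overlapped. Both were called without KPF replicate 2, at −0.98 and −0.86, and neither was called without KPF replicate 1, KPF replicate 3, WPF replicate 2 or WPF replicate 3, while without WPF replicate 4 or with the replicate block (*Pank4* at −0.50, unadjusted p = 0.134) only *Pank1* was. With KPF replicate 2 and WPF replicate 4 both left out, *Pank1* (−1.12) and *Pank4* (−0.92) were both called. *Vnn3*, the vanin next to *Vnn1* in function, had a log2 fold change of 0.11 (SE 0.27).

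The tested genes whose pattern over the 6 libraries was most like that of each gene were taken by Pearson's r of log2(CPM + 1), as a description without a test. For *Acot1* they were *1700119H24Rik* (0.993), *Klhdc10* (0.991) and *Gk* (0.986), and for *Acot3* *Fam208a* (0.999), *Tom1* (0.994) and *Zfp867* (0.987). For *Acot12* they were *Svbp* (0.996), *Extl3* (0.974) and *Susd6* (0.971). For *Vnn1* they were *Gm49326* (0.995), *Orai1* (0.994) and *Ccm2* (0.992), and for *Pex11a* *Csnk2b* (0.985), *Cabyr* (0.972) and *Ltb4r1* (0.971). For *Creb3l3* they were *Slc16a7* (0.996), the gene ENSMUSG00000120279, which matched no symbol (0.992), and *Ubald1* (0.991). These are the highest values picked from 10866 genes over 6 libraries, and how often values this high arise was not counted.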

How the data were processed

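Liver libraries of 3 KPF and 3 WPF dams were used. For every gene the authors deposited a raw read count and an FPKM value per library. The submitters' processing notes name cutadapt 1.9.1, HISAT2 2.2.1, HTSeq 0.6.1, DESeq2 and GRCm39. The strand setting and the handling of reads that map to several places are not given in the sources used here. The deposited FPKM values equal the counts divided by exonic length and by the total of counted reads.

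Counts were tested with edgeR 4.0.16 in R 4.3.3 (quasi-likelihood test, TMM over genes whose FPKM averaged at least 1, Benjamini-Hochberg). The SE is the log2 fold change divided by the square root of F. Symbols were matched through GENCODE M21 (52073 of 56691 gene IDs), and no coordinates were combined across builds. Sequences came from GENCODE M21 and RefSeq on GRCm38. The fit was tested on simulated data. The genes and lists were chosen with earlier results of these data known. All 10 genes were named, and from other lists the called genes and up to 4 of the highest FPKM. Alternatives were DESeq2 1.42.0 and its size factors, library totals, limma 3.58.1 on log2(FPKM + 1) and log2(FPKM + 0.1), other filters, summed reads of neighbours, each library left out and a replicate block. TMM over all genes and leaving out KPF replicate 2 with WPF replicate 4 were added after seeing the data.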

Additional observations from a re-analysis of the deposited data

How the results depend on the processing

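The signs of *Acot1*, *Acot12* and *Creb3l3* held under every alternative run, with 1 exception: with the reads of *Acot1* to *Acot6* summed, the single estimate that stands for *Acot1* and *Acot2* was −0.24. *Pex11a* and *Acot8*, near 0, turned below 0 with library totals (−0.0848 and −0.0721), TMM over all genes (−0.0555 and −0.0166), no expression filter (−0.0555 and −0.0165), limma on log2(FPKM + 1) (−0.16 and −0.10) and log2(FPKM + 0.1) (−0.17 and −0.14), and KPF replicate 2 with WPF replicate 4 left out (−0.0196 and −0.29), where *Acot4* was at 0.29 and *Acot13* at −0.69. The filter of edgeR put *Pex11a* at −0.0160. With each library left out in turn, *Acot2* ran from −0.36 to 0.84, *Acot3* from −1.34 to 0.00958, *Acot4* from −0.54 to 0.36, *Acot8* from −0.32 to 0.22, *Acot13* from −0.56 to 0.0123, *Vnn1* from −0.0133 to 0.86 and *Pex11a* from −0.28 to 0.27, the genes called over all tested from 570 to 1619, those with an adjusted p under 0.05 from 0 to 5 (5 without WPF replicate 4), and the called genes among the 10 from 0 to 2. The lowest count of 570 was without WPF replicate 3, with 641 without WPF replicate 2 and 1619 without KPF replicate 3. Without KPF replicate 2 and WPF replicate 4, 1352 of 10866 genes were called, 44 had an adjusted p under 0.05, and 2 of the 10 were called (*Acot1* and *Acot3*). Without an expression filter 2486 of 26984 genes were called, 286 at an adjusted p under 0.05, and 1 of the 10 (*Acot1*). By the main rule DESeq2 called 1139 of 10866 genes and 1 of the 10 (*Acot1*), with 156 genes at an adjusted p under 0.05. At a minimum mean FPKM of 5, 460 of 4757 genes were called and 8 of the 10 were tested. Of called genes 59.5% were higher in KPF, against 34.1% with library totals, 47.1% with TMM over all genes, 30.5% with limma on log2(FPKM + 1) and 29.1% on log2(FPKM + 0.1), and library totals moved the median log2 fold change of tested genes to −0.12. Replicate numbers 2 and 3 occur in both groups but stand for different dams, whose deviations correlated at 0.035 and −1.86e-05. Number 1 occurs only in KPF and number 4 only in WPF, so with the replicate block these libraries do not enter the estimate. That estimate sets KPF replicates 2 and 3 against WPF replicates 2 and 3. With the replicate block 1231 genes were called and 1 of the 10 (*Creb3l3*, 0.88, unadjusted p = 0.0276), with *Acot2* at −0.50, *Acot3* at 0.13, *Acot4* at 0.47, *Vnn1* at −0.0461 and *Pex11a* at −0.32. The causes were not tested.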
